A study of Mus musculus with 25 samples.

Results

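The genes described are 10 transcripts associated with the connective tissue and stromal cells that lie between the seminiferous tubules of the mouse testis: Dcn, Gsn, Col1a1, Col1a2, Col3a1, Igfbp7, Tcf21, Pdgfra, Cd34 and Lum. They were chosen by name, with earlier results of these data known, and all 10 were found among the 29244 genes of the count tables. Single-cell libraries had been made by Drop-seq, in which cells are enclosed in droplets with barcoded beads that capture their mRNA, and which counts the 3′ ends of transcripts by unique molecular identifiers (UMIs). There were 21 libraries of dissociated whole testis and 4 libraries of sorted germ cells. The question addressed was how often these genes were detected together in 1 barcode, and at what level they were counted in each strain.

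The whole-testis libraries comprised 11 from wild-type C57BL/6 mice (WT), 6 from Mlh3-/- mice and 2 from Cul4a-/- mice, both on a B6;129 background, and 2 from mice carrying the CNP eGFP BAC TRAP transgene on C57BL/6 (CNP). According to the labels the WT mice were aged between 3 months 1 day and 9 months 14 days, the Mlh3-/- mice between 2 months 21 days and 8 months 30 days, the Cul4a-/- mice 1 month 18 days and 1 month 21 days, and the CNP mice 2 months 14 days and 2 months 16 days. In the study's own sample list the ages of the Cul4a-/- and CNP mice differ from these labels. Genetic background goes with the knockouts and cannot be told apart from them in comparisons with WT. By the labels the Cul4a-/- and CNP mice were all younger than the WT mice, so age cannot be told apart from these strains either. Mlh3-/- replicates 1, 2 and 3 lay within the ages of WT and replicates 4, 5 and 6 were younger. WT replicates 1 and 2 were dissociated enzymatically and all other whole-testis libraries mechanically. The sorted spermatogonia came from the pooled testes of 5 litter mates aged 7 days that carried Pouf51-EGFP on C57BL/6, after enzymatic dissociation, and the sorted primary spermatocytes, secondary spermatocytes and spermatids from wild-type C57BL/6 mice aged 2 months 21 days, after mechanical dissociation, with 1 library for each population. The study describes the WT libraries as coming from separate animals, and nothing used here says so of the mutant libraries, so that p-values measure the spread between these libraries.

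The interstitium of the testis holds the androgen-producing Leydig cells, macrophages, vessels and fibroblast-like stromal cells embedded in a collagen matrix. Type I and type III collagens form its fibrils, and small leucine-rich proteoglycans such as decorin bind those fibrils and regulate their spacing. Telocytes are interstitial cells with long thin processes that are usually recognised by CD34 together with PDGFRA, while TCF21 is a transcription factor of mesenchymal progenitors.

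From whole testis there were 47450 barcodes with 63288551 UMIs in all. Single libraries ranged from 357235 to 9745302 UMIs, and the median barcode had 588. The number of barcodes shared by a pair of libraries was at most 27, or 1.35% of the smaller library, over 300 pairs. The Mlh3-/- libraries stood apart in their makeup. Summed late spermatid markers (10 genes of the protamine stage) were counted at 532 to 1065 UMIs per 1000000 UMIs of the library (CPM) there and at 30114 to 57885 in WT, while summed Leydig cell markers (10 genes) reached 1959 to 13276 CPM against 8.40 to 456, and Sertoli cell markers (13 genes) 1259 to 6668 against 269 to 779. Mitochondrially encoded genes took 4.55% to 13.4% of UMIs in Mlh3-/- and 0.517% to 1.72% in WT. The targeted genes gave no check of the labels. Mlh3 itself was counted at 26.2 to 86.5 CPM in the Mlh3-/- libraries and at 10.7 to 72.9 in WT, and Cul4a at 49.0 and 54.5 CPM in the Cul4a-/- libraries and at 5.6 to 45.7 in WT. UMIs mark the 3′ end of a transcript, and which part of each gene was deleted is not given in the sources used here.

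The 3 fibrillar collagen chains were counted at low levels in WT. Col1a2 (chr6:4504814-4541544, plus strand, GRCm38), the second chain of type I collagen, was counted at 0 to 9.99 CPM in the 11 WT libraries, with a median of 3.59, and at 21.9 to 50.3 CPM in the 6 Mlh3-/- libraries, with a median of 36.1. In Cul4a-/- it reached 2.17 and 2.36 CPM and in CNP 3.87 and 3.79. All 6 Mlh3-/- libraries lay above all 11 WT libraries, while the Cul4a-/- and CNP values fell inside the WT range. Col3a1 (chr1:45311538-45349706, plus strand), the chain of type III collagen, showed the same order, from 0 to 3.04 CPM in WT (median 1.61) and from 15 to 30.3 in Mlh3-/- (median 19.4). The Cul4a-/- libraries held Col3a1 at 3.10 and 2.77 CPM and the CNP libraries at 2.58 and 3.79, so that 1 library of each strain lay above the WT range. Col1a1 (chr11:94936224-94953042, plus strand), the first chain of type I collagen, rested on far fewer UMIs, 12 in WT and 49 in Mlh3-/-. It ranged from 0 to 2.68 CPM in WT (median 0.36) and from 2.52 to 4.44 in Mlh3-/- (median 3.36), so the ranges met, because the enzymatic WT replicate 2 held 2.68. Col1a1 was at 0.41 and 0.41 CPM in Cul4a-/- and at 2.58 and 0 in CNP.

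The sequences before the annotated starts of Col1a2, Col3a1 and Igfbp7, which were all higher in Mlh3-/- than in WT, are shown because their base composition differed widely. Each run is the 250 bases before a RefSeq start on the strand of the gene (GRCm38.p6, the build of the files), and capitals mark letters found by searching both strands for the TATA box (TATAAA), the CCAAT box (CCAAT), the GC box (GGGCGG, which reads CCGCCC when it lies on the other strand) and an E-box (CAGCTG).
Col1a2 (chr6:4505368-4505617, plus strand): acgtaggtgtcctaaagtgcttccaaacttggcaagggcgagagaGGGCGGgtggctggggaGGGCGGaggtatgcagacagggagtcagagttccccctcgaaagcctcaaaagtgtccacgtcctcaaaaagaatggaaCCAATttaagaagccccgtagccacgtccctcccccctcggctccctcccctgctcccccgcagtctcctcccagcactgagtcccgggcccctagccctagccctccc
Col3a1 (chr1:45311288-45311537, plus strand): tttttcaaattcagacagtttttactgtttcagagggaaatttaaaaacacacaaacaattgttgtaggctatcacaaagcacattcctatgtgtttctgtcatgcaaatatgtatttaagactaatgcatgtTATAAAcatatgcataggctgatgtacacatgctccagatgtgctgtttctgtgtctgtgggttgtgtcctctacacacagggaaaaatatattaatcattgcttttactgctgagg
Igfbp7 (chr5:77408046-77408295, minus strand): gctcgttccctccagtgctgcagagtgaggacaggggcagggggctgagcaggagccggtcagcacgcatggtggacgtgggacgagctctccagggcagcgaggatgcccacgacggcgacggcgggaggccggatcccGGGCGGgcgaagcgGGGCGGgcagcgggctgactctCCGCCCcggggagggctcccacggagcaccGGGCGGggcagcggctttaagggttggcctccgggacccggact
Col3a1 had 35.2% G and C with 0 CpG and 1 TATAAA, which lies 117 bases before the start. Col1a2 had 62.0% G and C with 11 CpG, GGGCGG 205 and 188 bases before the start and CCAAT 109 bases before it, and its window lies inside the gene model of the annotation. Igfbp7 had 74.0% G and C with 26 CpG and 4 GGGCGG, 1 of them on the other strand. Over 32851 promoter windows of the same length the median was 52.4% G and C and 6 CpG, and 12.4% held TATAAA, 33.8% CCAAT, 32.7% GGGCGG and 13.0% CAGCTG, so each of these letters is common. Promoter windows were matched for 7 of the 10 genes, the other 3 being Dcn, Col1a1 and Lum.

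Decorin and lumican, both small leucine-rich proteoglycans whose genes are neighbours on chromosome 10, went in opposite directions. Dcn (chr10:97479609-97518143, plus strand) was counted at 0 to 56.1 CPM in WT, with a median of 9.78, and at 66.6 to 173.6 CPM in Mlh3-/-, with a median of 127.9. The Cul4a-/- libraries held 10.8 and 15.6 CPM of Dcn and the CNP libraries 11.6 and 30.3. Every Mlh3-/- library exceeded the highest WT library, WT replicate 5, which itself stood well above the next WT value of 16.0. In that library 1 barcode of 2485 UMIs carried 86 of the 174 Dcn UMIs, and without it Dcn was at 28.4 CPM. Lum (chr10:97565128-97572703, plus strand), which starts 46984 bases beyond the end of Dcn, was counted at 0.55 to 2.90 CPM in WT (median 1.55) and at 0 to 0.46 in Mlh3-/- (median 0.16). It was at 2.06 and 2.87 CPM in Cul4a-/- and at 0 and 1.90 in CNP. All 6 Mlh3-/- libraries lay below all 11 WT libraries, on 3 and 43 UMIs in all.

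Gsn (chr2:35256380-35307892, plus strand), which encodes the actin-severing protein gelsolin, was detected in every whole-testis library. It was counted at 2.33 to 33.5 CPM in WT (median 9.92), at 31.1 to 85.6 in Mlh3-/- (median 52.6), at 9.08 and 9.44 in Cul4a-/- and at 7.74 and 16.1 in CNP. The WT and Mlh3-/- ranges overlapped through WT replicate 5 alone, since the next WT library held 14.7 CPM, and without the barcode described for Dcn replicate 5 held 21.3. Igfbp7 (chr5:77349240-77408041, minus strand), a secreted protein that binds insulin-like growth factors, gave the most UMIs of the 10 genes, 3928 in whole testis. It ranged from 0 to 29.3 CPM in WT (median 12.0), from 71.0 to 627.9 in Mlh3-/- (median 132.0), and was at 35.1 and 35.5 in Cul4a-/- and at 18.1 and 51.2 in CNP. Mlh3-/- replicates 1 and 3, at 627.9 and 348.0 CPM, were the highest, and the same 2 libraries held the highest Leydig marker levels, 13276 and 11316 CPM. Both Cul4a-/- libraries lay above all WT libraries. The 3′ end of Igfbp7 overlaps Polr2b on the other strand, which was counted at 1944 UMIs, and whether the counting used strand is not given in the sources used here.

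Of the cell-surface genes, Pdgfra (chr5:75152292-75198215, plus strand), the receptor for platelet-derived growth factor, separated Mlh3-/- from WT most widely. It was counted at 0 to 1.45 CPM in WT (median 0.35) and at 12.8 to 23.5 in Mlh3-/- (median 16.3), at 1.75 and 1.33 in Cul4a-/- and at 1.29 and 0 in CNP. Pdgfra had the narrowest relative spread of the higher genes in Mlh3-/- beside Col1a1, 16.8 ± 3.71 CPM (SD, n = 6). Cd34 (chr1:194938819-194961279, plus strand), a sialomucin of stromal, endothelial and blood progenitor cells, ranged from 0 to 2.26 CPM in WT (median 0.55) and from 2.22 to 15.1 in Mlh3-/- (median 8.37). It was at 0.52 and 0.92 CPM in Cul4a-/- and at 1.29 and 3.79 in CNP. Tcf21 (chr10:22817281-22820174, minus strand), the transcription factor, was at 0 in 7 of the 11 WT libraries, reached 2.26 CPM in WT replicate 5, and ranged from 1.89 to 17.5 in Mlh3-/- (median 5.10). It was at 0.31 and 0.51 CPM in Cul4a-/- and at 1.29 and 0.95 in CNP. A count of 0 allows up to 8.40 CPM in the smallest library, WT replicate 1, by the limit of 3 counts. The 3′ ends of Cd34 and Tcf21 are also overlapped by antisense genes, of which Gm16897, over Cd34, was counted at 366 UMIs.

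**Figure D1:**
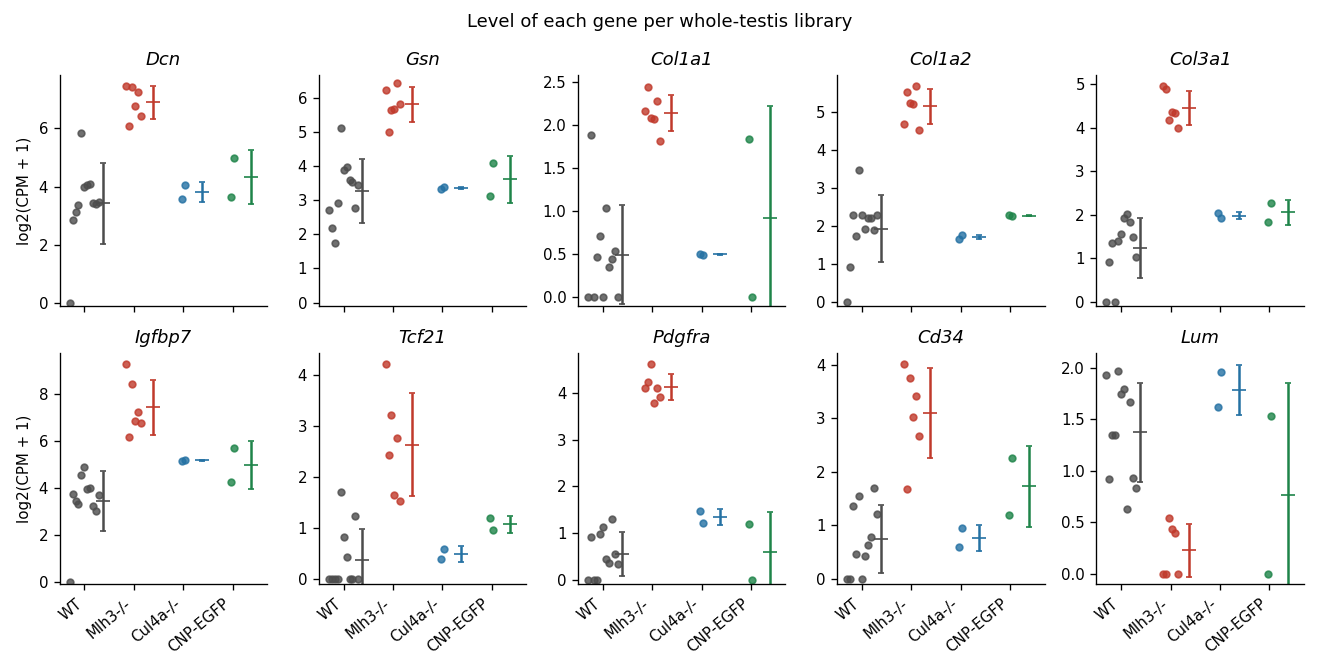
Level of each of the 10 genes in every whole-testis library, as log2(CPM + 1) on the vertical axis, by strain, with points for libraries and bars for the mean ± SD. The mean of the Mlh3-/- libraries is above that of WT for 9 genes and below it for Lum, with ranges that overlap for Gsn, Col1a1, Tcf21 and Cd34, and 1 WT library (replicate 5) stands above the other WT libraries for Dcn, Gsn and Col1a2.

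Summed over the 9 genes other than Lum, the level was 44.9 ± 32.2 CPM in WT (SD, n = 11), 512.1 ± 273.1 in Mlh3-/- (n = 6), 66.1 ± 3.96 in Cul4a-/- (n = 2) and 80.1 ± 42.2 in CNP (n = 2). In sums over a library, fewer cells of a type and less RNA per cell cannot be told apart. The makeup of the libraries moved with these levels. Set against Sertoli markers, those of another somatic cell, the 9 genes gave 10.9 UMIs per 100 Sertoli marker UMIs in WT (2.08 to 25.3) and 19.6 in Mlh3-/- (7.74 to 25.8), with overlapping ranges. Set against Leydig markers they gave 29.3 per 100 in WT (5.96 to 66.7) and 10.9 in Mlh3-/- (5.92 to 15.1), so the order of the means turned, again with overlapping ranges. Igfbp7 alone gave 6.85 UMIs per 100 Leydig marker UMIs in WT (0 to 16.3), 3.99 in Mlh3-/- (3.08 to 4.92), 5.35 in Cul4a-/- and 10.2 in CNP.

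In the comparison of Mlh3-/- with WT all 10 genes passed the test, 9 of them higher and Lum lower. At the same threshold 32.7% of the 23386 genes tested were higher and 28.6% lower, 61.3% in all, so passing is common in this comparison. The size of the differences is a better description, as the median over the 10 genes was a log2 fold change of 2.70 and over all genes tested 0.16. Pdgfra had the widest difference, 4.27 on the log2 scale (SE 0.37, adjusted p = 1.47e-11 by the quasi-likelihood F test of edgeR, Benjamini-Hochberg over all genes). Igfbp7 followed with 3.55 (SE 0.36, adjusted p = 3.78e-10) and Col3a1 with 3.00 (SE 0.30, adjusted p = 5.27e-10). Tcf21 at 2.99 (SE 0.62) and Cd34 at 2.73 (SE 0.44) were less precisely estimated, Tcf21 on 13 UMIs in WT and 71 in Mlh3-/- and Cd34 on 24 and 125, and Col1a2 at 2.67 (SE 0.28) more precisely. Dcn differed by 2.51 (SE 0.34), Col1a1 by 2.22 (SE 0.53, adjusted p = 0.000547) and Gsn by 1.83 (SE 0.30). Lum was lower by -3.21 (SE 0.64, adjusted p = 7.13e-05). Ranges of the libraries did not overlap for 6 of the 10, 5 higher and 1 lower, against 20.3% and 11.1% of all genes. Without Mlh3-/- replicates 1 and 3, whose Leydig marker level stands apart, all 10 still passed, with Igfbp7 at 2.25, Tcf21 at 1.89, Dcn at 1.94 and Lum at -3.66. Scaling by library totals alone, in place of factors that adjust for composition, gave Dcn 3.02 and Lum -2.81 and moved the median of all genes to 0.62, with 10099 genes higher and 5140 lower in place of 7640 and 6690. Relative to these medians all 10 genes kept their direction. Late spermatid, Leydig, Sertoli and mitochondrial counts moved with the strain as given above, and their part in the differences was not tested.

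The comparison of Mlh3-/- with Cul4a-/- holds the labelled background constant, since both are B6;129, although the study's own strain list writes the backgrounds of these lines differently. By the labels both Cul4a-/- mice were younger than every Mlh3-/- mouse, so age cannot be told apart from strain here. All 10 genes passed again in the same directions, where 20.1% of all genes were higher and 26.8% lower (46.9% in all), and their ranges did not overlap for any of the 10, against 28.2% higher and 23.8% lower of all genes. This comparison shares the Mlh3-/- libraries with the one above. Col1a2 differed by 3.44 (SE 0.50, adjusted p = 1.04e-06), Cd34 by 3.05 (SE 0.69), Pdgfra by 2.91 (SE 0.52), Dcn by 2.75 (SE 0.62) and Lum by -3.76 (SE 0.72). Tcf21 differed by 3.24 (SE 0.93), Col1a1 by 2.41 (SE 0.75), Col3a1 by 2.28 (SE 0.46) and Gsn by 2.16 (SE 0.53). Igfbp7 differed by 2.20 (SE 0.62, adjusted p = 0.00419), and without Mlh3-/- replicates 1 and 3 by 0.95 (SE 0.43), which no longer passed (adjusted p = 0.072). With 1 Cul4a-/- library left out, 6 genes passed without replicate 1 and 8 without replicate 2, and Igfbp7 and Col1a1 were among those lost both times. The lone Cul4a-/- library is then assumed to vary like the other groups.

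Neither Cul4a-/- nor CNP differed from WT by the test in any of the 10 genes. Between Cul4a-/- and WT, 0 of 10 passed where 2.06% of all genes did (1.75% higher and 0.308% lower). By edgeR 3710 of the 23386 genes tested were under an unadjusted p of 0.05. Of the 10 genes, 2 were by edgeR and 2 by DESeq2, which also called 0. These 2 by edgeR were Igfbp7, with a log2 fold change of 1.34 (SE 0.49, adjusted p = 0.146), and Pdgfra, with 1.37 (SE 0.53, adjusted p = 0.177). Igfbp7 was the 1 gene of 10 whose ranges did not overlap, where 8.86% of all genes lay wholly higher and 3.17% wholly lower, and among mechanically dissociated HiSeq libraries alone it passed, at 1.19 (adjusted p = 0.0306). Of the matrix genes that did not pass, Dcn was at -0.24 (SE 0.52), Col1a2 at -0.77 (SE 0.45), Col3a1 at 0.72 (SE 0.43) and Lum at 0.55 (SE 0.52). Summed Leydig markers were at 596 and 738 CPM in Cul4a-/-, above the WT range, and 2 of 10 of those markers passed as higher. Their part in the Igfbp7 level was not tested. Between CNP and WT, 0 of 10 passed against 0.543% of all genes (0.0812% higher and 0.462% lower). Under an unadjusted p of 0.05 there was 1 of 10 by edgeR, where 2265 of the 23386 genes tested were, and 0 by DESeq2. For 0 of 10 did the ranges not overlap, against 6.97% higher and 3.47% lower. The CNP errors were wide, with Dcn at 0.34 (SE 0.62), Igfbp7 at 1.23 (SE 0.59, adjusted p = 0.499), Cd34 at 1.39 (SE 0.92) and Col1a1 at 1.06 (SE 1.2), so differences of these sizes could not be told from 0 with 2 small libraries.

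**Figure D2:**
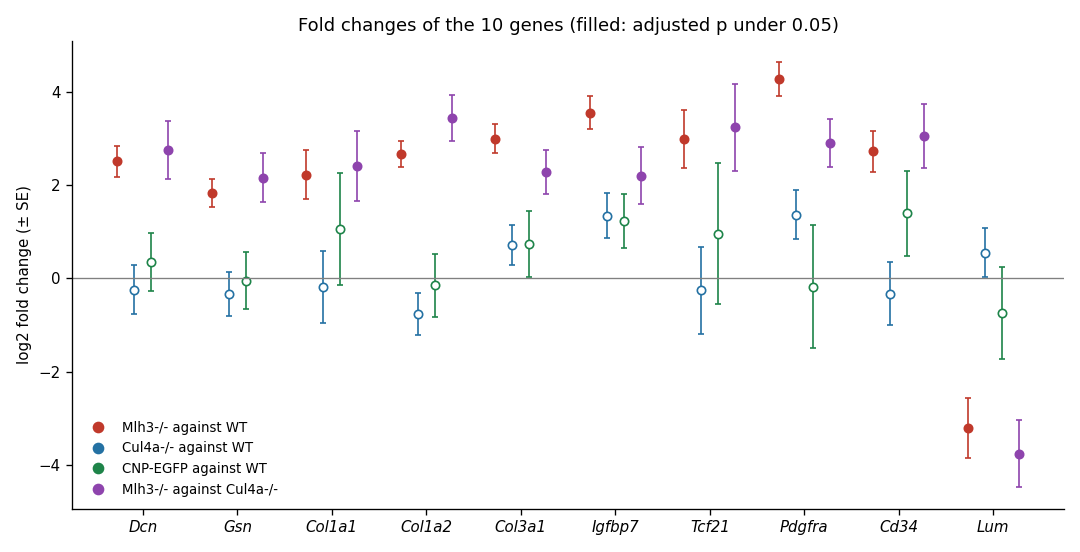
Log2 fold change of each gene with its standard error in 4 comparisons of strains, where filled points passed an adjusted p of 0.05 and open points did not. All 10 genes are filled in both comparisons of Mlh3-/-, with Lum the only negative one, and none is filled for Cul4a-/- or CNP against WT.

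Within WT, the protocol of dissociation was compared on 2 enzymatic libraries, with 102 and 598 barcodes, and 9 mechanical ones, with 1491 to 2996. The 9 genes other than Lum summed to 16.7 ± 15.6 CPM (SD, n = 2) after enzymatic and to 51.2 ± 32.0 (n = 9) after mechanical dissociation. None of the 10 genes passed where 15.4% of all genes did (7.42% higher and 8% lower). By edgeR 5498 of the 19584 genes tested were under an unadjusted p of 0.05. Of the 10 genes, 1 was by edgeR (Col1a2, log2 fold change -2.60, SE 1.15, adjusted p = 0.139) and 1 by DESeq2 (Dcn). The median of the 10 genes was -1.57 and that of all genes -0.06. Dcn at -1.94 (SE 0.99, adjusted p = 0.207 by edgeR) and Gsn at -1.68 (SE 0.91, adjusted p = 0.237) did not pass. Fitted with genes of any count, edgeR gave Dcn at -1.94 (SE 0.48, adjusted p = 0.000999) and Gsn at -1.68 (SE 0.54, adjusted p = 0.0156), which passed. Of the Leydig markers, 4 of 10 were lower after enzymatic dissociation.

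Genes of the same matrix and growth factor pathways were counted from lists that do not contain the 10 genes, and these lists were drawn up with earlier results of these data known. In Mlh3-/- against WT, where 32.7% of all genes tested were higher and 28.6% lower, 20 of 29 other proteoglycans and matrix glycoproteins were higher and 0 lower, with a median log2 fold change of 1.84. Among them were Sparcl1, a matricellular protein, at 76.5 against 4.28 CPM, the basement membrane laminin Lamb2 at 26.9 against 1.09, and the collagen-binding glycoprotein Sparc at 612.6 against 55.6. Of the genes for collagen processing and turnover, 16 of 20 were higher and 3 lower (median 2.31), led by the lysyl hydroxylase Plod2 at 38.7 against 2.24 CPM, the protease inhibitor Timp3 at 50.02 against 2.25 and the protease Adamts5 at 33.2 against 2.35. Of other collagens 4 of 12 were higher and 4 lower (median 0.32), shares near those of all genes. Col4a1 of basement membranes was at 15.2 against 0.54 CPM and Col6a1 at 10.1 against 0.48, while Col15a1 was at 2.15 against 8.28.

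All 9 measured genes of the IGF axis were higher in Mlh3-/- (median 3.53), among them Igfbp2 at 25.1 against 1.21 CPM, Igfbp3 at 16.6 against 0.15 and the ligand Igf2 at 30.8 against 1.43. The PDGF axis gave 2 of 5 higher and 1 lower (median 0.31), again near the background. Pdgfrb, the second receptor, was higher with a log2 fold change of 3.11 (SE 0.84), the ligand Pdgfa by 0.77 (SE 0.20), and the ligand Pdgfc was lower at -1.33 (SE 0.34). Of genes used to mark stromal cells, 12 of 16 were higher and 1 lower (median 2.58), with the transcription factor Zeb2 at 70.3 against 2.79 CPM and the chemokine Cxcl12 at 41.1 against 1.12, while Klf4, a factor that round spermatids also express, was at 10.7 against 144.0. Against Cul4a-/- the same lists gave 15 higher and 1 lower of 29, 11 and 1 of 20, 3 and 5 of 12, 9 and 0 of 9, 2 and 0 of 5, and 9 and 1 of 16, in that order, where 20.1% of all genes were higher and 26.8% lower. In Cul4a-/- against WT, where 2.06% of all genes passed, only Mfap5 and Igfbp2 of these 6 lists did. In CNP against WT, where 0.543% of all genes passed, only Igfbp2 did.

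Marker lists of other cells were counted in the same comparison of Mlh3-/- with WT, where 32.7% of all genes tested were higher and 28.6% lower. Leydig markers were higher in 10 of 10 (median 4.54), Sertoli markers in 12 of 12 tested (2.46) and macrophage markers in 11 of 12 (3.11). Peritubular myoid markers gave 7 higher and 1 lower of 10, endothelial markers 2 higher and 3 lower of 10, T cell markers 2 higher and 4 lower of 9, and red blood cell markers 4 higher of 5. Late spermatid markers were lower in 10 of 10. Summed spermatogonia markers were at 235 to 843 CPM in Mlh3-/- and 48.9 to 108 in WT. Summed spermatocyte markers were at 6984 to 13572 CPM against 7128 to 9894. The clearest of each list included Fabp3, Cyp11a1 and Star of Leydig cells (log2 fold changes 4.90, 4.58 and 4.62), Clu, Gsta4 and Gstm6 of Sertoli cells (2.96, 3.11 and 2.54), and Mrc1, Lyz2 and C1qc of macrophages (3.19, 4.26 and 3.71). Of the myoid list the enteric smooth muscle actin Actg2 was lower (-8.89) while Mylk and Myl9 were higher (1.80 and 2.65). The endothelial Flt1 and Egfl7 were lower (-1.92 and -1.96) and Cdh5 higher (2.93). Summed endothelial markers, the other usual source of Cd34, covered 9.60 to 19.3 CPM in Mlh3-/- and 9.31 to 28.6 in WT. That sum joins genes of opposite direction, with mean CPM of 2.38 against 6.62 for Flt1, 1.72 against 3.96 for Egfl7 and 2.14 against 0.12 for Cdh5. The part of endothelial cells in the Cd34 level was not tested. Summed macrophage markers covered 101 to 896 CPM against 14.0 to 55.1. The myoid sum was 63.9 to 398 CPM against 232 to 380. Actg2 alone had a mean of 1.14 CPM in Mlh3-/- and 279 in WT, so most of the WT sum was this gene. The sum therefore does not follow the 7 myoid markers that were higher.

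At the level of single barcodes, 4274 of the 47450 (9.01%) held at least 1 of the 10 genes, 908 (1.91%) at least 2, 302 (0.636%) at least 3, 131 at least 4, 69 at least 5 and 36 at least 6. Dcn was present in 1354 barcodes, Igfbp7 in 2061, Gsn in 936, Col1a2 in 470, Col3a1 in 295 and Pdgfra in 253, while Cd34 was present in 139, Lum in 90, Tcf21 in 85 and Col1a1 in 63. Of the barcodes with Tcf21, 69.4% carried another of the 10 genes, as did 63.6% of those with Pdgfra and 54.5% of those with Col1a2. This share was 43.9% for Dcn and 32.9% for Igfbp7, and only 7.78% for Lum. Shares of barcodes with a UMI follow depth. After each barcode was thinned to 200 UMIs, leaving out shallower ones, any of the 9 genes without Lum was expected in 1.03% of barcodes in WT (0.111% to 1.61% over libraries), 10.3% in Mlh3-/- (6.55% to 17.6%), 1.95% in Cul4a-/- and 1.93% in CNP. The unthinned means were 3.45%, 37.5%, 10.04% and 3.27%, and the barcodes left out as too shallow numbered 529, 1592, 4 and 1856.

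Barcodes with at least 3 of the genes were rare outside Mlh3-/-. They numbered 16 in WT, from 7 of 11 libraries, 254 in Mlh3-/-, from all 6, and 32 in Cul4a-/-, from both. The mean share per library was 0.0547% ± 0.0546 in WT (SD, n = 11), 3.7% ± 3.69 in Mlh3-/- (n = 6), with a range from 1.08% to 10.6%, and 0.560% ± 0.0772 in Cul4a-/- (n = 2). In CNP 0 of 4381 barcodes were of this kind, which allows up to 0.0685% by the limit of 3 counts, and since the WT mean lies below that limit a difference from WT was not detectable at this depth.

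How often the genes would meet by their abundance alone was calculated in 2 ways, and the answers differ. Where the UMIs of each gene in a library fall on barcodes in proportion to their total UMIs, 407 barcodes with at least 3 genes are expected, and the 302 counted are 0.741 times that (95% Poisson interval 0.660 to 0.830). Under that expectation 20 of the 36 pairs without Lum met more often than expected, with a median ratio of 1.06, where the lower bound lay above 1 for 5 pairs and the upper bound below 1 for 8. By strain that ratio for at least 3 genes was 2.35 in WT (1.35 to 3.82), 0.681 in Mlh3-/- (0.600 to 0.771) and 1.16 in Cul4a-/- (0.797 to 1.64). When the barcodes of a library were put in 10 equal bins by depth, the deepest bin held 25.7% to 69.2% of its UMIs, with up to 143411 UMIs in 1 barcode. Of the 302 barcodes, 79 were in that bin. How many this expectation places there was not counted. Where instead the share of barcodes with each gene is taken within these depth bins of its own library, a calculation added after the data were seen, 121 are expected and the ratio is 2.51 (2.23 to 2.80). For at least 4 genes 14.2 barcodes are expected and 131 were counted, 9.22 times as many, and for at least 5 genes 1.04 are expected and 69 were counted. Within depth bins the ratio by strain for at least 3 genes was 65.4 in WT (37.4 to 106), 2.14 in Mlh3-/- (1.88 to 2.42) and 23.0 in Cul4a-/- (15.7 to 32.5). The expected numbers were 0.245, 119 and 1.39 in that order. The ratios thus differ with how common the genes were and do not rank the strains. These intervals cover counting error only, and cells are not replicates, so they describe these libraries.

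Within depth bins all 36 pairs without Lum met more often than expected, with ratios between 1.52 and 17.1 (median 4.12). In all 36 the lower bound lay above 1. Pairs of other genes were not counted in this way, so no background share stands beside these 36. The study lists Dcn, Cd34, Pdgfra, Col1a1, Col1a2 and Col3a1 as key genes of telocytes, from data that include these libraries. It also names Gsn and Tcf21 as telocyte markers found there. Meeting more often than expected is therefore partly built in. The expectation treats the barcodes of a bin alike, whichever cells they came from. The highest ratio belonged to Col1a1 and Cd34, with 13 barcodes where 0.759 were expected (9.12 to 29.3), and the collagens followed. Col1a1 and Col3a1 shared 20 barcodes where 1.54 were expected, a ratio of 13.0 (7.92 to 20.02). Col1a1 and Col1a2 shared 21 where 2.09 were expected, a ratio of 10.1 (6.23 to 15.4), and Col1a2 and Col3a1 shared 71 where 9.44 were expected, a ratio of 7.52 (5.87 to 9.49). The 2 chains of type I collagen thus met each other and the chain of type III at rates in the same range. Pdgfra and Cd34, the pair by which telocytes are recognised, shared 19 barcodes where 3.60 were expected, a ratio of 5.27 (3.17 to 8.23). Of these 19 barcodes 18 were from Mlh3-/-, 1 from WT and 0 from Cul4a-/- or CNP. Dcn and Gsn shared 215 where 81.2 were expected (2.65, 2.31 to 3.03), and Dcn and Igfbp7, the pair with the most barcodes in common, 414 where 273 were expected, the lowest ratio of 1.52 (1.37 to 1.67). Under the expectation from UMI shares these pairs turned, with ratios of 0.725 for Dcn and Gsn (0.631 to 0.828) and 0.678 for Dcn and Igfbp7 (0.614 to 0.747), while Pdgfra and Cd34 were at 1.09 (0.656 to 1.70), Col1a2 and Col3a1 at 1.25 (0.977 to 1.58) and Col1a1 and Cd34 at 2.85 (1.52 to 4.87). Pairs with Lum shared 16 barcodes where 10.9 were expected, and for 0 of 9 did the lower bound lie above 1. Dcn and Lum, the neighbours on chromosome 10, shared 2 barcodes where 1.92 were expected.

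**Figure D3:**
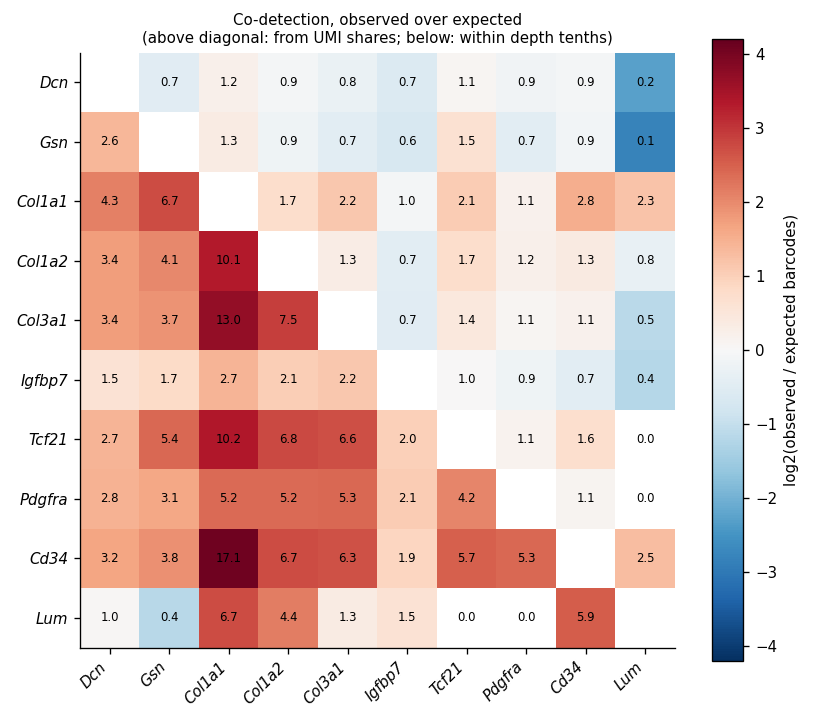
Ratio of barcodes holding both genes of a pair to the number expected, as a colour, over the 21 whole-testis libraries, with the expectation from UMI shares above the diagonal and the one within depth bins below it. Below the diagonal every pair without Lum is above 1, up to 17.1, while above it ratios lie between 0.625 and 2.85 for those pairs.

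The barcodes with at least 3 of the genes were split by Leydig markers, a split added after the data were seen. Of the 302, 143 also passed the Leydig marker threshold, at least 3 UMIs and 1% of the UMIs of the barcode, and 159 did not. Of all 47450 barcodes, 1825 were past that threshold. Among the 1790 of them in libraries with at least 10, since the other 35 were too few for depth bins, 134 with at least 3 genes were expected within depth bins, so the ratio was close to 1 (1.07, 0.898 to 1.25). Past the threshold, at least 4 genes were expected in 24.7 barcodes and counted in 40, a ratio of 1.62 (1.16 to 2.21). At least 5 genes were expected in 3.53 and counted in 11, a ratio of 3.12 (1.56 to 5.58). Among the 45625 barcodes not past the threshold 24.6 with at least 3 genes were expected and 159 counted, a ratio of 6.47 (5.50 to 7.56). This ratio was 5.38 in Mlh3-/-, 16.1 in Cul4a-/- and 67.0 in WT. It rests there on 23.2, 1.12 and 0.239 expected barcodes, so it does not rank the strains. Barcodes not past the threshold still held Leydig markers, at 2583 CPM over the 159 against 35399 over the 143 past it. Of all barcodes, 26083 of 26123 in WT were not past the threshold, and 1690 of 11210 in Mlh3-/- were past it. None of the 16 WT barcodes with at least 3 genes was past it, a count too small to set WT apart. In Mlh3-/- the numbers past and not past it were unequal between libraries, 21 past and 5 not past in replicate 1 and 74 past and 11 not past in replicate 3, against 13 past and 48 not past in replicate 6 and 12 past and 34 not past in replicate 5. The 2 Cul4a-/- libraries held 8 and 6 past it and 9 and 9 not past it. Over the whole of Mlh3-/- replicates 1 and 3 Leydig markers were at 13276 and 11316 CPM, which is itself above the 1% of the threshold. Passing it therefore goes with those libraries as well as with single barcodes.

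**Figure D4:**
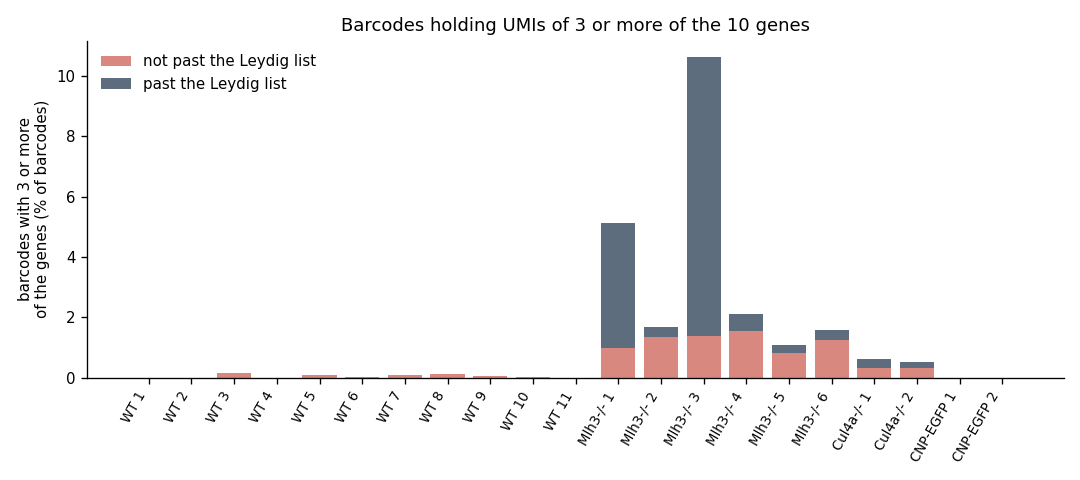
Share of barcodes with at least 3 of the 10 genes in each whole-testis library, in percent, stacked by whether the barcode passed the Leydig marker threshold. Mlh3-/- replicate 3 reaches 10.6%, mostly past the threshold, WT libraries reach at most 0.134%, none of it past the threshold, and CNP libraries are at 0. Of all 26123 WT barcodes 26083 were not past the threshold.

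The genes carried on the 2 sides of the Leydig threshold differed in their shares. Igfbp7 was in 92.3% of the barcodes past it and in 67.3% of those not past it, whereas Gsn was in 46.2% and 74.2%, Dcn in 76.9% and 91.2%, Col1a2 in 44.8% and 63.5% and Col3a1 in 23.1% and 41.5%. Cd34 was in 10.5% and 23.3%, Tcf21 in 9.79% and 18.2% and Col1a1 in 1.40% and 17.0%, while Pdgfra was in like shares, 31.5% and 34.6%, and Lum in 0.699% and 0.629%. The barcodes on both sides were chosen for holding at least 3 of the genes. A share of the genes' UMIs above their share of barcodes is therefore built in. Those not past the threshold, 0.335% of all barcodes, held 49.3% of all Col1a1 UMIs, 43.2% of Dcn, 41.2% of Gsn and 39.4% of Tcf21. They also held 37.9% of Col1a2, 36.9% of Cd34, 34.8% of Col3a1 and 27.4% of Pdgfra. They held only 7.51% of the Igfbp7 UMIs, of which 19.4% lay in the barcodes past it, and 1.04% of the Lum UMIs. Their median depth was 914 UMIs against 2404 for the barcodes past the threshold and 586 for barcodes with fewer than 3 of the genes, and doublets were not removed.

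The genes found with the 10 genes depend on that split. Over all 302 barcodes, pooled over strains and 254 of them from Mlh3-/-, the highest ratios to the other barcodes belonged to Leydig cell genes, the hormone Insl3 at 4312 against 190 CPM, the steroidogenic enzymes Hsd3b6 (log2 ratio 4.22) and Cyp17a1 (4.08), and Fabp3 (4.04), followed by Akr1cl, Lcn2, Adamts5, Gstm1, Ptgds and Cst3. Within Mlh3-/- alone, a comparison added after the data were seen, Adamts5 was first, at 372 against 16.1 CPM (log2 ratio 3.44), Insl3 was at 4159 against 641 (2.66), and Hsd3b6 at 1591 against 244 (2.61), and 3 of the 10 genes stayed among the first 10. In the 32 Cul4a-/- barcodes 8 of that list's 10 genes stayed, with Insl3 first at 5770 against 72.4 CPM. In the 16 WT barcodes Insl3 had 0 UMIs, while Adamts5 was at 2009 against 1.94 CPM, Gstm1 at 3516 against 50.6 and Cst3 at 1591 against 68.0. Without barcodes past the Leydig threshold, the first were Adamts5, a protease of proteoglycans, at 751 against 3.86 CPM (log2 ratio 5.01), Ppap2b, a lipid phosphatase (4.67), Igfbp6, which binds IGF2 (4.49), Mgp, the matrix Gla protein (4.42), and Sparcl1 (4.34). Fgl2, the complement inhibitor Serping1, the retinoic acid hydroxylase Cyp26b1, Rbbp7 and the proteoglycan Ogn completed these 10, of which 1 was shared with the list over all barcodes. Within Mlh3-/- alone 8 of these 10 stayed among the first 10, with Adamts5 at 860 against 12.3 CPM (4.77). Only 3 stayed in the 16 WT barcodes, where 30 genes had 20 UMIs. In the 18 Cul4a-/- barcodes 2 stayed, with Mgp first and Adamts5 on 4 UMIs. The strains were also pooled here, so the lists are given within Mlh3-/-, over 125 of the 159 barcodes. There 12 of 19 genes of collagen processing were at least 2-fold higher than in the other barcodes (median log2 ratio 1.41), 17 of 30 other proteoglycans (1.22), 7 of 12 other collagens (1.26), 6 of 9 IGF genes (2.17), 10 of 16 stromal genes (1.51) and 1 of 5 PDGF genes (0.25). Over all 22998 genes 791 were at least 2-fold higher and the median was -0.01. Leydig markers were at least 2-fold higher in 5 of 10 (median 0.98), Sertoli markers in 1 of 12 (0.22), myoid markers in 2 of 10 and endothelial markers in 2 of 12. In the 18 Cul4a-/- barcodes Leydig markers were at least 2-fold higher in 10 of 10 and Sertoli markers in 10 of 12, and in the 16 WT barcodes in 5 of 10 and 1 of 12. The part of these cells was not tested.

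Where the UMIs of the genes lay was described by sorting barcodes of at least 200 UMIs by marker lists that leave the 10 genes out. Such classes are ranges of a score, not cell types. In the 1578 barcodes past the Leydig list alone, of which 315 lay near the threshold and 1456 were from Mlh3-/-, Igfbp7 was at 904 CPM (95% interval 867 to 943), Dcn at 191, Gsn at 66.7, Col1a2 at 54.3, Pdgfra at 39.4, Col3a1 at 38.1, Tcf21 at 12.0 and Cd34 at 10.4. These barcodes held 56.3% of all Igfbp7 UMIs counted in classes but 18.1% of Dcn, 11.2% of Gsn and 7.14% of Col1a1. The largest share of every gene but Igfbp7 and Lum lay in the barcodes past no list, which were 17408 of the 43469 classed. It was 57.2% for Dcn, 57% for Gsn, 67.1% for Col1a1, 52.1% for Col1a2 and 52.4% for Cd34. For Tcf21 it was 46.7%, for Col3a1 43.8% and for Pdgfra 38.6%. No barcode passed the peritubular myoid or the endothelial list, so those cells could not be set apart. Germ cell lists gave the background, and these classes differ in their strains. Over all strains Dcn was at 14.0 CPM in the 14037 barcodes past the spermatocyte list (median depth 661 UMIs) and at 9.79 in the 9639 past the late spermatid list (658), none of them from Mlh3-/-, against 77.4 in the barcodes past no list (590), where Gsn was at 43.7 and Col1a2 at 18.1. Within Mlh3-/- Dcn was at 30.7 CPM past the spermatocyte list and at 413 past no list. In WT it was at 5.91 and 28.6, with 10.2 past the late spermatid list, and in Cul4a-/- at 2.38 and 31.9, with 9.61. Whether the background is RNA from outside the cells was not tested. In Sertoli list barcodes Igfbp7 was at 97.0 CPM in WT (73 barcodes, 6 UMIs), at 106 in Mlh3-/- (430 barcodes, 39 UMIs) and at 609 in Cul4a-/- (57 barcodes, 54 UMIs), with Dcn at 70.9 and Pdgfra at 21.8 in Mlh3-/-.

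Igfbp7 in Leydig list barcodes, pooled over libraries, was at 798 CPM in the 1456 Mlh3-/- barcodes, 1649 in the 36 WT barcodes, 2343 in the 73 Cul4a-/- barcodes (2091 to 2617) and 4442 in the 13 CNP barcodes. Libraries of a strain differed widely. Mlh3-/- replicates 1 and 3 held 835 of the 1456 barcodes, at 850 and 422 CPM, while replicates 4, 5 and 6 were at 1562, 1402 and 1335 and replicate 2 at 669. WT replicate 6 held 30 of the 54 WT UMIs. Without Mlh3-/- replicates 1 and 3 Mlh3-/- was at 1378 CPM, and without WT replicate 6 WT was at 1128, alternatives added after the data were seen. Leaving out either set alone kept WT above Mlh3-/-, and with all 3 libraries left out the order turned. Cul4a-/- replicates 1 and 2, at 2450 and 2249 CPM, lay above all 6 Mlh3-/- libraries. The Leydig list barcodes were unlike between strains, with a median Leydig marker share of 1.56% in Mlh3-/-, 2.91% in WT, 5.51% in Cul4a-/- and 3.45% in CNP. The part of this share in the Igfbp7 levels was not tested. Dcn in barcodes past no list was at 413 CPM in Mlh3-/- (388 to 440), 28.6 in WT, 31.9 in Cul4a-/- and 26.5 in CNP. Pooled over libraries, Mlh3-/- was the highest and the other 3 strains lay between 26.5 and 31.9 CPM. Mlh3-/- replicate 2 held 13 Dcn UMIs of 178321 there and WT replicate 5 held 161 of 2071067, so the libraries of these strains overlapped. The barcodes past no list were also unlike. Their median late spermatid marker share was 3.37% in WT, 2.89% in Cul4a-/-, 1.66% in CNP and 0% in Mlh3-/-. The part of this makeup was not tested. In WT, replicate 5 held 161 of the 323 Dcn UMIs in these barcodes, and without it, an alternative added after the data were seen, WT was at 17.6 CPM. Intervals here cover counting error only, and no test was made over the few libraries that hold Leydig list barcodes outside Mlh3-/-.

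**Figure D5:**
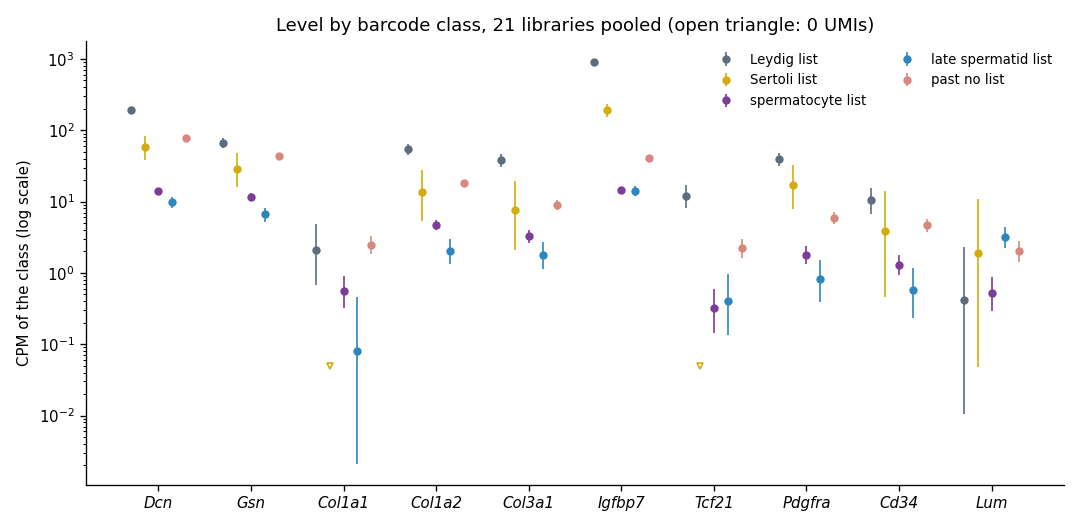
Pooled level of each gene in barcodes sorted by marker lists, in CPM on a log axis, with exact 95% intervals for counting error and open triangles where 0 UMIs were counted. Strains are pooled, with 1456 of the 1578 Leydig list barcodes from Mlh3-/-, and Igfbp7 is at 904 CPM in those barcodes, while Lum rests there on 1 UMI.

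Lum differed from the other 9 genes in the direction of its difference between Mlh3-/- and WT. It had 96 UMIs in 90 whole-testis barcodes, with no more than 2 in any barcode. Of the 94 UMIs in classified barcodes 39 (41.5%) lay in late spermatid list barcodes, 38 (40.4%) in barcodes past no list and 1 (1.06%) in Leydig list barcodes. Of the 90 barcodes with Lum, 41 were from WT, 44 from Cul4a-/-, 3 from Mlh3-/- and 2 from CNP, so that a contrast over all strains carries their makeup. Within WT, barcodes with Lum held late spermatid markers at 39399 CPM, against 40665 in barcodes without it, and Leydig markers at 52.5 against 205 CPM. Within Cul4a-/- the late spermatid markers were at 81069 against 52552 CPM and the Leydig markers at 70.4 against 682. Lum was at 2.51 CPM in late spermatid list barcodes and at 1.86 in barcodes past no list in WT, on 16 and 21 UMIs, and at 4.02 and 3.43 in Cul4a-/-, on 23 and 16. Mlh3-/- libraries held 0 barcodes past the late spermatid list. Of the 90 barcodes with Lum, 7 (7.78%) held another of the genes, 2 of the 3 in Mlh3-/- among them, and 2 of the 302 barcodes with at least 3 genes held Lum.

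Across the 21 whole-testis libraries each of the 9 genes went with the others. Pearson correlations of log2(CPM + 1) between a gene and the sum of the rest were 0.956 for Dcn, 0.923 for Col3a1, 0.912 for both Col1a2 and Igfbp7, 0.898 for Tcf21, 0.890 for Pdgfra, 0.886 for Gsn, 0.875 for Cd34 and 0.715 for Col1a1, and -0.595 for Lum. The points are libraries of 4 strains, with the 6 Mlh3-/- libraries apart from the rest, so these values carry the difference between Mlh3-/- and the other strains. Among the genes whose level was most like the sum of the 10, of 14308 genes with at least 100 UMIs, were Vcam1 (0.975), C2 (0.972), Amy1 (0.970), Sparcl1 (0.970), Acsbg1 (0.969), Aldh2 (0.967), Reep3 (0.966), Serping1 (0.966) and Rab18 (0.965). Within the 11 WT libraries alone these genes gave 0.829 to 0.908. They were picked over libraries that include these 11, so high values there are partly built in. No share over all genes stands beside them. Vcam1, an adhesion molecule, was at 42.2 to 536 CPM in Mlh3-/- and at 0 to 9.35 in WT, and Sparcl1 and Serping1 were also among the genes found in barcodes not past the Leydig threshold.

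In the sorted germ cells, each population is 1 library without replicates, and a few barcodes held much of the UMIs of the genes where these were counted most. The sorted spermatogonia held 202 UMIs of the 9 genes in 51 of 296 barcodes, and 3 barcodes with at least 3 genes held 147 of them (72.8%). The single highest barcode carried 80 of its 2233 UMIs from 8 of the genes. Col1a2 stood at 44.5 CPM in that library, Col1a1 at 33.4 and Dcn at 31.7, and Sertoli markers at 2039 CPM. The sorted secondary spermatocytes held 89 UMIs in 28 of 398 barcodes, 44 of them (49.4%) in 4 barcodes, with Igfbp7 at 152.6 and Dcn at 122.1 CPM and Leydig markers at 2362 CPM. The sorted spermatids held 8 UMIs in 6 of 299 barcodes, and the sorted primary spermatocytes 0 in 199 barcodes, which allows up to 28.0 CPM for each gene.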

How the data were processed

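Drop-seq libraries of 25 samples were analysed, 21 of whole testis and 4 of sorted germ cells. The deposited files hold counts made by the authors, whole-number UMIs per gene and barcode without normalization. The submitters' processing notes name bcl2fastq, STAR 2.5.3a and the builds mm10 and GRCm38. Every deposited barcode was used, 102 to 4261 per whole-testis library, and no doublet caller was run. The members and all gene lists were chosen with earlier results of these data known. A further mutant strain of the study was not analysed here.

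CPM is the UMIs of a gene per 1000000 UMIs of its library. For each strain comparison UMIs were summed per library, and edgeR 4.0.16 (R 4.3.3) was fitted by quasi-likelihood with TMM to all 21 whole-testis libraries. Genes with at least 5 counts were tested, with Benjamini-Hochberg adjustment over all of them and a threshold of 0.05. The protocols of dissociation were compared in the same way on the 11 WT libraries. SE is the absolute log2 fold change divided by the square root of F. TMM factors were 1.18 to 1.63 in Mlh3-/- and 0.833 to 0.994 elsewhere. The fit was tested on simulated data. Alternatives were DESeq2 1.42.0, other scalings and filters, only barcodes of 200 UMIs and 50 genes without or with a scaled mt-Rnr2 limit of 2, platform as covariate, a replicate block and each library left out. Alternatives added after the data were seen were the expectation within 10 depth bins, the split by Leydig markers, and leaving out Mlh3-/- replicates 1 and 3, WT replicate 5 with both enzymatic WT libraries, WT replicate 5 alone for Dcn in barcodes past no list, or Mlh3-/- replicates 1 and 3 and WT replicate 6 for Igfbp7 in Leydig list barcodes, and genes found with the members within Mlh3-/-, Cul4a-/- or WT alone.

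Named genes were all 10 members, the 3 genes with the smallest adjusted p of each list in Mlh3-/- against WT, the first passing gene of a list in other comparisons, the 10 most like the members over libraries, and the 10 with the highest ratio in barcodes of at least 3 members among genes with 20 UMIs there, with 20 CPM added to both sides. Genes of the germ cell, T cell and red blood cell lists that this rule takes are not all printed, and 1 gene that the rule takes is not reported here. Classes needed 3 UMIs and 1% of UMIs from a list (late spermatids 5%). Adgre1 was matched by an older symbol, and Rhox5 and Mmp3 were not matched. Intervals are exact Poisson intervals at 95% and, like limits of 3 counts, cover counting error only. Gene positions are from GENCODE vM21 (GRCm38) and promoter windows from RefSeq. Python 3.11.15, numpy 2.4.6, scipy 1.17.1, pandas 2.3.3 and matplotlib 3.10.9 were used.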

Additional observations from a re-analysis of the deposited data

Results flagged for a closer look

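WT replicate 5 stood apart from the other 8 mechanically dissociated WT libraries in 4 of 22 groups of values examined for a sample far from the rest. Chance gives about 1 in 20 for a single group. These 4 share this library, and 1 of them is a sum that holds the others, so they are not separate events. WT replicate 5 held Dcn at 56.1 CPM with the next library at 16.0, Gsn at 33.5 with the next at 14.7, Col1a2 at 9.99 with the next at 3.92, and the 9 genes without Lum at 129.5 with the next at 65.7. In it 1 barcode with 2485 UMIs carried 157 of the 402 UMIs of the 9 genes, from all 9 of them (86 of Dcn, 38 of Gsn and 19 of Col1a2). Without that barcode the level of the 9 genes was 79.0 CPM, Gsn was at 21.3 and Col1a2 at 3.87.

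In the sorted libraries, which enter no comparison of strains, several genes were counted above the highest WT whole-testis library. In the sorted spermatogonia this held for Col1a1 at 33.4 CPM (highest WT library 2.68), Col1a2 at 44.5 (9.99), Col3a1 at 24.8 (3.04), Pdgfra at 5.13 (1.45), Cd34 at 5.99 (2.26) and the 9 genes together at 172.9 (129.5). Without the single highest barcode the 9 genes were at 104.6 CPM. In the sorted secondary spermatocytes it held for Dcn at 122.1 CPM (56.1), Col3a1 at 19.1 (3.04), Igfbp7 at 152.6 (29.3) and the 9 genes together at 339.6 (129.5), or 252.6 without the highest barcode. Each is 1 library, so no test was made, and the part of other cells in these sorts was not tested.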

How the results depend on the processing

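In Mlh3-/- against WT all 338 values of the 10 genes over 34 settings kept their direction and passed, wherever the gene was tested (filterByExpr dropped Col1a1 and Lum). The numbers of the labels were not shown to pair samples, since samples with the same number deviated with correlations from -0.42 to 0.32. With the replicate block 2 of the 10 genes passed in CNP against WT (Dcn 2.41, Igfbp7 2.22) and 1 in Cul4a-/- against WT (Igfbp7 2.28), and all-gene calls were 2027 for CNP (127 without), 1128 for Cul4a-/- (481 without) and 5764 for Mlh3-/- against Cul4a-/- (10975 without), where Col1a1 (2.21), Cd34 (2.59) and Lum (-6.72) did not pass. The block also turned, in CNP against WT, Col1a1 (-0.93), Col1a2 (2.25) and Gsn (1.5), and in Cul4a-/- against WT, Cd34 (5.14), Col1a2 (1.90), Dcn (1.88), Gsn (1.27) and Tcf21 (4.35). The cause was not tested.

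All-gene calls were 578 for CNP and 982 for Cul4a-/- with DESeq2, and 457 and 2025 among mechanical HiSeq libraries alone, where 1 of the 10 genes passed in Cul4a-/- (Igfbp7) and Col1a1 was at 0.027. In CNP against WT, Dcn was at -0.018 with barcodes of 200 UMIs and 50 genes and at -0.061 with the mt-Rnr2 limit, Pdgfra was at 0.027 with the former, and Gsn was at 0.086 by library totals. Without WT replicate 5 and the enzymatic WT libraries, added after the data were seen, Cul4a-/- against WT gave Col1a1 0.25, Dcn 0.092 and Tcf21 0.43 and 902 all-gene calls. Without a filter on counts 2 of the 10 genes passed between the protocols of dissociation. By library totals alone, Mlh3-/- against Cul4a-/- gave 7280 genes higher and 4869 lower (4710 and 6265 otherwise), CNP against WT 36 and 79 (19 and 108), and the protocols 1651 and 1213 (1454 and 1566). The co-detection ratio was 0.861 without Igfbp7 and 2.51 within depth bins, of 10 genes found with the members 1 was shared without Leydig list barcodes and 3 within Mlh3-/- alone, and shares thinned to 500 UMIs were 2.03% in WT, 21.1% in Mlh3-/- and 4.02% in Cul4a-/-.

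With each library left out in turn, none of the 10 genes passed for Cul4a-/-, CNP or the protocols, 6 to 10 passed for Mlh3-/- against Cul4a-/- (6 without Cul4a-/- replicate 1) and 10 for Mlh3-/- against WT. All-gene calls ranged from 14 to 189 for CNP (14 without CNP replicate 2, 41 without CNP replicate 1), 105 to 1026 for Cul4a-/- (105 and 112 without Cul4a-/- replicates 2 and 1, 1026 without WT replicate 2), 1696 to 3348 for the protocols (3020 with all; 1696 without WT replicate 2, 1955 without WT replicate 1), and 7019 to 11651 for Mlh3-/- against Cul4a-/- (7019 and 7102 without Cul4a-/- replicates 2 and 1). The co-detection ratio ranged from 0.680 to 0.853. Genes that changed sign, none of which passed, ranged in CNP against WT from -3.85 to 2.20 (Col1a1), -0.30 to 0.16 (Col1a2), -0.58 to 0.84 (Dcn), -0.74 to 0.30 (Gsn) and -4.12 to 0.97 (Pdgfra), in Cul4a-/- against WT from -0.84 to 0.046 (Cd34), -0.39 to 0.16 (Col1a1), -0.59 to 0.26 (Dcn), -0.42 to 0.022 (Gsn) and -0.68 to 0.57 (Tcf21), and between protocols from -3.06 to 2.67 (Col1a1), -0.92 to 0.62 (Lum) and -3.63 to 0.56 (Pdgfra). Depth limits Col1a1, Tcf21, Lum and Cd34 most, with 71 to 168 UMIs each over all whole-testis libraries.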
